A study of Mus musculus with 102 samples.

Results

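Spleens of 3 old wild-type (WT) mice, 1 of 21 months and 2 of 23 months, were compared with spleens of 3 young WT mice of 5 months, which together are 6 of the 102 samples of the series. They were chosen by their labels, as the WT arm of a table of 12 spleens that also holds 3 old and 3 young mice labelled mTOR. All 6 mice were male, their titles carry the strain code BL6J and separate animal numbers, and no treatment is given. The labels do not say whether the WT mice were littermates of the mTOR mice, nor what the mTOR allele is. Genes were kept where the normalized read count was 10 or more in at least 3 of the 12 libraries, which left 15512 genes. The direction of each difference was set beside that in other animals of the series, 7 male BL6J spleens of 20 months and 9 of 5 months, which belong to a separate table of 45 spleens of 6 ages. The named genes and lists were also read at 26 months in that table (5 spleens), since the WT old mice lie between 20 and 26 months.

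The spleen filters blood in its red pulp, where macrophages take up spent red cells, and holds T cells and B cells in its white pulp. In mice it also makes red cells and granulocytes when demand rises. Naive T cells, which have not met antigen, leave the thymus and depend on transcription factors such as Lef1 and Tcf7, and thymic output declines with age in mice. In RNA from whole spleen, fewer cells of a type and less RNA per cell of that type cannot be told apart.

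Each of the 6 WT libraries held 8560405 to 14112504 reads in genes, the largest being that of WT old replicate 1, the 21-month animal. The ageing spleens used for the direction held 3031246 to 11702988 reads. Any pair of libraries of 1 WT group differed by 3.61 to 4.90 times the variance that read sampling gives, so none was a repeat of another. Mtor itself had 346, 342 and 329.7 in WT old spleens, against 326, 339 and 368 in WT young spleens, values that overlapped. B-cell and T-cell markers were present in every library, with Cd79b, a chain of the B-cell receptor complex, at 1202, 1809.9 and 1423 in WT old spleens, against 1654, 1314 and 2448 in WT young spleens, and Cd3e, a chain of the T-cell receptor complex, at 442, 749 and 782 in WT old spleens, against 942, 640.4 and 1011 in WT young spleens. Some common genes, among them B2m, Ms4a1, Igkc and Alas2, are listed at 0 in every WT library and could not be assessed.

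No single gene passed the test at a false discovery rate of 0.05, so the differences below are values and ranks and not calls, unless another tool is named. limma called 0 of 15512 genes (percent called 0) at adjusted p under 0.05, with 1748 genes (11.3%) at unadjusted p under 0.05 and 409 (2.64%) at unadjusted p under 0.01. These counts leaned on single libraries, with 895 and 189 without WT young replicate 1, 1088 and 193 without WT old replicate 1, 2570 and 908 without WT young replicate 2, and 2310 and 716 without WT young replicate 3. The smallest limma adjusted p was 0.0687, shared by Dapl1 and the predicted gene Gm2619. With 1 WT library left out, limma called Dapl1 and Lef1 lower (without WT old replicate 2), Fcgr2b higher (without WT old replicate 3) or Mir142hg lower (without WT young replicate 2), and none in the other 3 cases. edgeR called 0 genes, with 1863 at unadjusted p under 0.05. DESeq2 called 99 genes (0.638%), 37 higher (0.239%) and 62 lower (0.4%) in WT old spleens. The 3 old and 3 young values did not overlap for 1096 genes that were higher (7.07%) and 1084 that were lower (6.99%), 14.1% together. Below, differences are WT old minus WT young on the log2(normalized count + 1) scale with their standard error, from 3 animals a group, and limma p-values are 2-sided and adjusted over all 15512 genes unless stated.

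One young library carried many of the lower calls. Of the 62 genes that DESeq2 called lower, 55 (88.7%) had their highest young value in WT young replicate 1, against 33.9% of all tested genes. The nuclear RNA Malat1 took 0.928% of the reads of that library, against 0.596 to 0.659% in WT old spleens and 0.639 and 0.654% in the other young libraries. In the ageing spleens its share varied more, from 0.774 to 3.17% at 20 months, 1.45 to 2.31% at 5 months and 0.579 to 3.04% at 26 months. Without WT young replicate 1, DESeq2 called 21 genes, 11 higher and 10 lower, of which 12 were among the 99. Those 12 were Dapl1, Ampd1, Cel, Prpf38b and Igkv3-10 among the lower genes, and Fcgr2b, Klrc1, Ahnak, Ect2l, Foxp2, Snhg11 and Gm2619 among the higher ones. Whether RNA quality played a part in the others was not tested.

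Genes of naive T cells, Dapl1 first among them, were lower in WT old spleens by rank. Dapl1 (GRCm38 chr2:59484653-59505020, plus strand), a gene of naive T cells whose product is named for its likeness to death-associated protein, had normalized counts of 11.3, 32.0 and 19.3 in WT old spleens, against 222, 96.2 and 121 in WT young spleens. The highest old value was 32.0 and the lowest young value 96.2, so the groups lay far apart. Its log2 difference was -2.77 ± 0.39 (limma adjusted p = 0.0687), with a DESeq2 adjusted p of 2.39e-08, and -2.43 by limma without WT young replicate 1. Lef1 (chr3:131110471-131224356, plus strand), which encodes a transcription factor of the Wnt pathway and of T-cell development, had 229, 609.7 and 326 in WT old spleens, against 820.5, 768 and 891 in WT young spleens. No old spleen reached the lowest young value, though WT old replicate 2 lay nearer to the young animals than the other two. The difference of Lef1 was -1.21 ± 0.26 (limma adjusted p = 0.346), with a DESeq2 adjusted p of 0.0172, and -1.21 without WT young replicate 1, where DESeq2 gave an adjusted p of 0.0903.

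**Figure D1:**
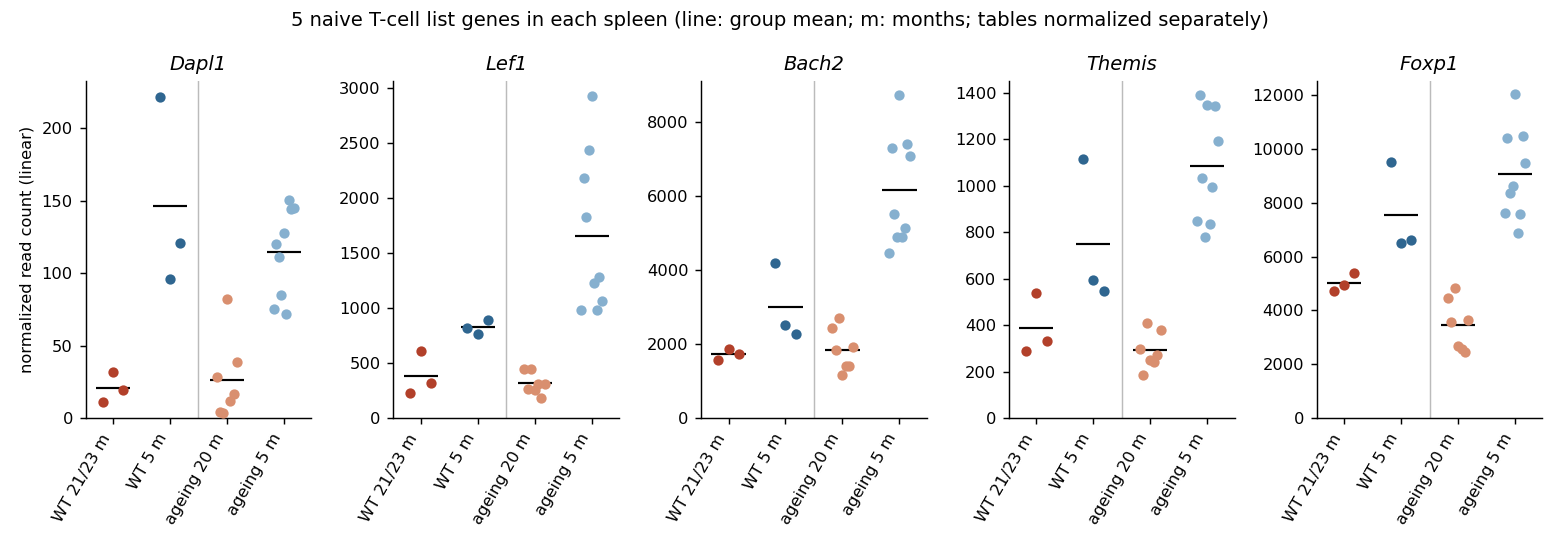
Normalized read count (linear axis) of Dapl1, Lef1, Bach2, Themis and Foxp1 in each spleen of the WT old, WT young, ageing 20-month and ageing 5-month groups, with the group mean as a line; levels are not comparable between the 2 tables. The old and young WT points do not overlap in any panel, and WT young replicate 1 is the highest young point for Dapl1, Bach2, Themis and Foxp1.

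The naive T-cell list held 15 genes, all tested, and 5 of them were lower without overlap (background 6.99%) while 0 were higher without overlap (7.07%). Its median log2 difference was -0.41, against 0.01 over all tested genes, and 11 of 15 members were negative. DESeq2 called 4 of the 15 lower, Dapl1, Lef1, Bach2 and Foxp1, and 0 higher. Bach2, a repressor that holds lymphocytes in a resting state, had 1587, 1871 and 1748 in WT old spleens, against 4197, 2514 and 2285 in WT young spleens. Themis, needed for the selection of T cells in the thymus, had 291, 539 and 332 in WT old spleens, against 1113, 594 and 547 in WT young spleens. Foxp1, which encodes a factor of T-cell quiescence, had 4718, 4953 and 5397 in WT old spleens, against 9491, 6484 and 6621 in WT young spleens. In all 3 genes the young values were led by WT young replicate 1, and without it the log2 differences were -0.47 for Bach2, -0.61 for Themis and -0.39 for Foxp1, against -0.74, -0.93 and -0.56 with it. Tcf7, the partner factor of Lef1, had 38.01, 77.8 and 60.04 in WT old spleens, against 124, 65.2 and 136 in WT young spleens, so that WT young replicate 2 lay within the old range. The migration genes of the list stood closer together. Ccr7, the receptor that leads T cells into the white pulp, differed by -0.41 ± 0.17 (limma adjusted p = 0.414). S1pr1, by which they leave it, differed by -0.14 ± 0.16 (limma adjusted p = 0.764), and Klf2, which drives S1pr1, by 0.03 ± 0.20 (limma adjusted p = 0.967). For all of these 3 genes the old and young values overlapped.

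Since these genes lay on 1 side together, the promoter windows of the naive T-cell genes were searched on both strands for a motif. The RefSeq windows ran from 250 bases before to 50 after the start (GRCm38.p6). The motif was CTTTGA, 1 form of the core that TCF and LEF factors bind. Of the 24 windows found for 12 of the 15 genes, 3 held it (12.5%), 1 each for Lef1, Bach2 and Foxp1. The share over all 32851 windows was 16.0%. By gene, 3 of the 12 held it, against 4911 of all 27025 genes. Of the 5 non-overlapping genes 3 held it, in 3 of their 11 windows (27.3%). Each of these shares rests on the same 3 genes, and no difference from the background was tested. The windows of Dapl1, which had the largest difference of the 5 non-overlapping genes, of Bach2 and of the Lef1 start that holds the motif are printed 5′ to 3′ with matches in capitals (TCAAAG is the motif on the other strand).
Dapl1, chr2:59484403-59484702, plus strand: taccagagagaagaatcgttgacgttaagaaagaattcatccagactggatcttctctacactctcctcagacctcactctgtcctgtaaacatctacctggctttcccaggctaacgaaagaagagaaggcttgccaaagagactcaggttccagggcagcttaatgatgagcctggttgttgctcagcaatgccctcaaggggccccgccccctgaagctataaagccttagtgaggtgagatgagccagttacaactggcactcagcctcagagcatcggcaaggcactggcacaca
Lef1, chr3:131156044-131156343, plus strand: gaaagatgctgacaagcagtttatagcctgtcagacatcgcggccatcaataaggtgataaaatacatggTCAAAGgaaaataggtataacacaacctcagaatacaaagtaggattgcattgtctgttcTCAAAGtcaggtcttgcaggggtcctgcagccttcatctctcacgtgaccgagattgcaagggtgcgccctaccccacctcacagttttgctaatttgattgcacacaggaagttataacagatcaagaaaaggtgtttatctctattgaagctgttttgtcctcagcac
Bach2, chr4:32417185-32417484, plus strand: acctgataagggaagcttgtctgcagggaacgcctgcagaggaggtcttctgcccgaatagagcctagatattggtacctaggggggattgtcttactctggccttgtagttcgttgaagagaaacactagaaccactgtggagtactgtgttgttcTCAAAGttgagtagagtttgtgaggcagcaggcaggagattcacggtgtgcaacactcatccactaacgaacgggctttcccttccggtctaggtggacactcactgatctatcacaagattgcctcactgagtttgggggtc
The Lef1 window held 2 matches and the Bach2 window 1, while that of Dapl1 held none, as did both windows of Themis. A match describes these letters only.

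Broader T-cell and B-cell lists had negative medians with counts near the background. Among 16 tested pan-T genes, 1 was lower without overlap (background 6.99%) and 0 were higher, with a median of -0.30. That median was -0.07 without WT old replicate 1, -0.17 without WT old replicate 3 and -0.62 without WT old replicate 2. That gene was Trbc1, a constant segment of the T-cell receptor beta chain, with 251, 368 and 329 in WT old spleens, against 975, 421 and 588 in WT young spleens. Among 16 tested follicular and pan-B genes, 2 were lower and 0 higher without overlap, with a median of -0.28, which was -0.17 without WT young replicate 1 and -0.44 without WT young replicate 2. Bank1, a scaffold of B-cell receptor signalling, had 2502, 2726 and 2247 in WT old spleens, against 6236, 3415 and 3649 in WT young spleens, and a difference of -0.78 ± 0.19 (limma adjusted p = 0.362). Ebf1, which sets B-cell identity, had 3879, 3174 and 4864 in WT old spleens, against 8598, 4985 and 5479 in WT young spleens. In these 3 genes too WT young replicate 1 was the highest library, and without it the differences were -0.67 for Trbc1, -0.51 for Bank1 and -0.42 for Ebf1.

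Other genes among the 12 with the smallest p on the lower side, by a rule described with the processing, have known roles outside the T-cell lists. St8sia1, which makes the ganglioside GD3, had 58.7, 91.7 and 52.9 in WT old spleens, against 296, 157 and 123 in WT young spleens. Pacsin1, an adaptor of vesicle traffic that in mouse immune cells is known from plasmacytoid dendritic cells, had 260.1, 279 and 268.7 in WT old spleens, against 441, 369.9 and 474 in WT young spleens. The old spleens lay within 19.2 counts of each other for Pacsin1, below each of the 3 young ones. Ampd1, an AMP deaminase best known from muscle, had 4.001, 5.33 and 4.07 in WT old spleens, against 46.6, 23.5 and 26.9 in WT young spleens, which left it under the level of 50 that the rule asked for. Its difference was -2.55 ± 0.38 (limma adjusted p = 0.0695), which has the third smallest p of all genes, and DESeq2 gave an adjusted p of 0.000872.

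The 12 named lower genes also held Hmgb1, Hmgn1 and Upf3a, which belong to none of the groups above. Hmgb1, a chromatin protein that also acts as a danger signal outside cells, had 2070.1, 2125 and 2138 in WT old spleens, against 3189, 2911 and 2788 in WT young spleens. Hmgn1, a nucleosome-binding protein, had 3985, 4044 and 4019.7 in WT old spleens, against 7028, 4903 and 6128 in WT young spleens. Upf3a, a factor of nonsense-mediated decay, had 854, 899.6 and 881 in WT old spleens, against 1370.4, 1139 and 1213 in WT young spleens. The old spleens were close to each other in all 3 genes, and the young ones higher and more spread. DESeq2 also called Upf2, Rbm25, Prpf38b, Eif5b and Pou2f2 lower, single genes named after their values were seen. Rbm25, a splicing factor, had 13160.0, 11598 and 13487 in WT old spleens, against 28283, 17829 and 16540.3 in WT young spleens, and Eif5b, a translation initiation factor, had 7097, 7234 and 8316 in WT old spleens, against 20379.8, 10712 and 10005 in WT young spleens. Of these 8 genes DESeq2 called Prpf38b alone without WT young replicate 1. The limma difference without that library was -0.43 for Hmgb1 and -0.42 for Upf3a, against -0.49 and -0.49 with it, and -0.46 for Eif5b and -0.46 for Pou2f2, against -0.78 and -0.80 with it.

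On the higher side Fcgr2b (GRCm38 chr1:170958617-170976547, minus strand), the inhibitory Fc receptor of B cells and macrophages, had the smallest p of the named higher genes. It had 2401, 1991 and 1492 in WT old spleens, against 993, 924 and 951 in WT young spleens, so every old spleen lay above every young one, by more than the whole spread of the young. Its difference was 1.01 ± 0.16 (limma adjusted p = 0.0883), with a DESeq2 adjusted p of 1.03e-05. Klrc1 (chr6:129666015-129678973, minus strand), which encodes the NKG2A inhibitory receptor of natural killer cells and activated CD8 T cells, had 160.1, 285 and 195 in WT old spleens, against 67.6, 102 and 75.2 in WT young spleens. Both groups were separate, with WT old replicate 2 the highest, and the difference was 1.36 ± 0.24 (limma adjusted p = 0.234). Klrc1 is not in the natural killer list, and of the 14 tested members of that list 0 were higher (background 7.07%) and 1 was lower (6.99%) without overlap. Its median was -0.17, but 0.06 without WT old replicate 2 and 0.02 without WT young replicate 1. The lower one was Gzma, a granule protease, with 60.02, 8.53 and 16.3 in WT old spleens, against 108, 73.8 and 95.3 in WT young spleens.

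A list of genes linked to age-associated B cells, a population of T-bet-positive memory B cells described in old mice, was in part higher in WT old spleens. RNA from whole spleen does not show which cells carried these genes. Of 9 tested members 5 were higher without overlap (background 7.07%) and 0 lower (6.99%), with a median of 0.39. Tbx21, which encodes T-bet, had 684, 556 and 492.5 in WT old spleens, against 437, 325 and 357 in WT young spleens, and a difference of 0.63 ± 0.19 (limma adjusted p = 0.37). Ahnak, a very large scaffold protein high in memory lymphocytes, had 2764, 2984 and 2589.9 in WT old spleens, against 1862, 1849 and 1669 in WT young spleens, with a difference of 0.63 ± 0.12 (limma adjusted p = 0.279). The other 3 were Zbtb32, Nt5e and Adora2a, with differences of 0.46, 0.38 and 0.39. Itgax, the CD11c integrin that marks these cells, had 1299, 636.4 and 827 in WT old spleens, against 681, 633 and 645 in WT young spleens, which overlapped. Fcrl5, another marker, had 1970.0, 1303 and 1768 in WT old spleens, against 2457, 1506 and 1425 in WT young spleens and a difference of -0.07. Among 17 tested genes of effector and exhausted T cells, 2 were higher without overlap, Lag3 and Tigit, which both encode inhibitory receptors, and 1 was lower, Gzma. Lag3 had 431, 368 and 332 in WT old spleens, against 209.6, 281 and 276 in WT young spleens, and Tigit had 284, 310.2 and 281 in WT old spleens, against 146, 188 and 260.2 in WT young spleens.

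Thbs2 and Yap1 were among the 12 named higher genes. Thbs2, a matrix glycoprotein, had 271.4, 254 and 339 in WT old spleens, against 115, 163 and 183 in WT young spleens, with a difference of 0.92 ± 0.21 (limma adjusted p = 0.362). Yap1, the effector of the Hippo pathway, had 226, 222 and 242 in WT old spleens, against 112, 160.4 and 140.2 in WT young spleens, and the old spleens lay within 20.5 counts of each other. Of 20 tested extracellular matrix genes, 2 were higher and 1 lower without overlap (background 7.07% and 6.99%), with a median of 0.08. Of 14 tested endothelial genes, 3 were higher and 1 lower without overlap, with a median of 0.24 that was 0.16 without WT old replicate 1 and 0.16 without WT young replicate 1. The higher ones were Tie1, Egfl7 and Stab1, a scavenger receptor of sinus endothelium that had 199, 159.9 and 217 in WT old spleens, against 118, 121 and 122 in WT young spleens. The lower one was Pecam1, which is also found on leukocytes and platelets, with 3286, 2993 and 3799.9 in WT old spleens, against 5442, 4096 and 4423 in WT young spleens. Of 16 tested p53 and senescence genes, 3 were higher and 1 lower without overlap. Cdkn2a, a cell-cycle inhibitor that accumulates with age in mice, had 30.7, 23.5 and 33.6 in WT old spleens, against 16.6, 18.2 and 19.1 in WT young spleens, a difference of 0.66 ± 0.47 (limma adjusted p = 0.601). Eda2r had 50.7, 37.3 and 52.9 in WT old spleens, against 15.5, 22.5 and 31.4 in WT young spleens, a difference of 1.03 ± 0.49 (limma adjusted p = 0.453), and Cdkn1a overlapped at 169, 148 and 151 in WT old spleens, against 156, 130.4 and 92.0 in WT young spleens.

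Plasma-cell genes overlapped in all but 1 of 12 tested (background 7.07%), the higher one being Prdm1, the regulator that drives plasma-cell formation. The list median was 0.46, but 0.10 without WT young replicate 1, 0.28 without WT old replicate 2 and 0.71 without WT young replicate 3. Prdm1 had 529, 823 and 565 in WT old spleens, against 323, 463 and 519 in WT young spleens, a difference of 0.55 ± 0.25 (limma adjusted p = 0.438). Immunoglobulin mRNA itself varied between animals of a group. Ighm, the heavy chain of IgM, had 196218, 392274 and 153868 in WT old spleens, against 82724, 134904 and 226633 in WT young spleens, and WT young replicate 3 lay above 2 of the 3 old spleens. The differences of single variable segments were more widely spread than those of all genes. The SD of the log2 difference was 1.33 over 89 heavy segments and 0.98 over 83 kappa segments, against 0.44 over all tested genes. DESeq2 called 1 of the 89 and 4 of the 83, against 0.638% of all tested genes. Similar segments can share reads, and how such reads were counted is not given in the sources used here.

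The spread of variable-segment reads over segments was summarised as the inverse Simpson index, the number of equally used segments that would give the same evenness. For kappa segments it was 3.91, 1.47 and 3.82 in WT old spleens, against 23.1, 18.2 and 4.88 in WT young spleens, so that all old values lay under all young ones. In mTOR spleens it was 24.4, 13.6 and 1.54 in old, against 6.56, 26.5 and 28.8 in young, which overlapped. The first segment of WT old replicate 1 was Igkv4-61, with 41.9% of kappa-segment reads. In WT old replicate 2 a single segment, Igkv5-39, held 82.2% of kappa-segment reads, and it was also the first segment in WT old replicate 3, with 50.4%, and in all 3 young spleens, with 13.3, 15.6 and 43.7%. For heavy segments the index was 4.69, 9.92 and 29.6 in WT old spleens, against 22.1, 7.86 and 27.2 in WT young spleens, which overlapped. In the ageing spleens the kappa median was 7.92 (2.08 to 16.3) at 20 months and 25.9 (6.74 to 35.4) at 5 months, and the heavy median was 7.503 (6.45 to 24.1) at 20 months and 26.0 (17.3 to 33.5) at 5 months. Both ranges overlapped between these ages, and the index was not tested.

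**Figure D2:**
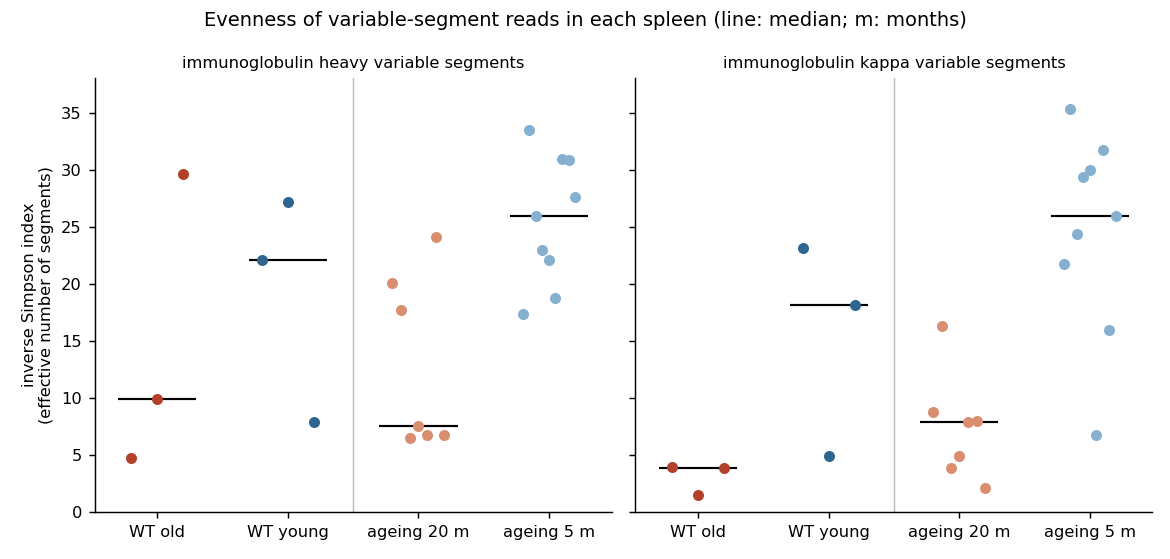
Inverse Simpson index (linear axis, effective number of segments) of heavy and kappa variable-segment reads in each WT old, WT young, ageing 20-month and ageing 5-month spleen, with the group median as a line. The kappa values of WT old spleens, 1.47 to 3.91, lie under those of WT young spleens, while the heavy values of the WT groups overlap.

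The largest list differences were in genes of other sources than lymphocytes, and the libraries of a group were far apart in them. The 16 exocrine pancreas genes, which encode digestive enzymes that spleen is not known to make, summed to 169, 102 and 182 in WT old spleens, against 146, 5768 and 2237 in WT young spleens. The high sums were those of WT young replicates 2 and 3, while WT young replicate 1 lay among the old spleens. Of 15 tested members 5 were lower (background 6.99%) and 0 higher (7.07%) without overlap, with a median of -3.97, and Prss1 is listed at 0 in all 6 WT spleens. Cpa1, a carboxypeptidase, had 3.33, 2.13 and 10.2 in WT old spleens, against 2.22, 726 and 248 in WT young spleens. The mTOR spleens gave sums of 169.9, 101 and 94.3 in mTOR old spleens, against 17613, 89.0 and 29512 in mTOR young spleens, with mTOR young replicates 1 and 3 highest. Surfactant genes of lung, named after their values were seen, were higher in the young spleens, with Sftpd at 30.0, 26.6 and 27.5 in WT old spleens, against 274, 121 and 46.0 in WT young spleens and Sftpb at 26.7, 16.0 and 14.2 in WT old spleens, against 93.1, 51.3 and 37.0 in WT young spleens. Here WT young replicate 1 was the highest. The part of other tissue in the differences above was not tested.

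Erythroid and cell-cycle lists had negative medians with no member that passed a test, again with uneven young libraries. All 21 tested erythroid genes had a negative difference, with a median of -0.97, 4 of them without overlap (background 6.99%). The median was -1.85 without WT young replicate 1 and -0.57 without WT young replicate 3. The list summed to 4663, 10653 and 15751 in WT old spleens, against 7287, 19089 and 24982 in WT young spleens, which overlapped. Gata1, the erythroid master regulator, had 43.3, 42.6 and 66.1 in WT old spleens, against 89.8, 203 and 197 in WT young spleens, a difference of -1.61 ± 0.81 (limma adjusted p = 0.472). All 32 tested cell-cycle genes were also negative, with a median of -0.41 and 11 without overlap (background 6.99%). The list summed to 12691, 14260.0 and 12342 in WT old spleens, against 15803, 21583 and 18422 in WT young spleens, without overlap. WT young replicate 2 was the highest. Top2a, a topoisomerase of dividing cells, had 2629, 2813 and 2636 in WT old spleens, against 4224, 5156 and 3551 in WT young spleens, a difference of -0.66 ± 0.48 (limma adjusted p = 0.605). Neither list held a member under an unadjusted limma p of 0.05. That test takes its spread from all 12 libraries, not from the WT spleens alone, and the mTOR spleens were uneven. Erythroid sums were 78207, 30364 and 5078 in mTOR old spleens, against 17278, 9365 and 42773 in mTOR young spleens. Cell-cycle sums were 26163, 15678 and 5569 in mTOR old spleens, against 7818, 5776 and 14533 in mTOR young spleens. In mTOR spleens, where these sums overlapped, the medians had the other sign, 0.66 for erythroid and 0.43 for cell-cycle genes. In the ageing spleens the erythroid sums ran from 2711 to 84790 at 20 months and from 4765 to 67387.5 at 5 months. Cell-cycle sums ran from 5200 to 55186 at 20 months and from 7871 to 19852 at 5 months, so both lists overlapped. At 20 against 5 months no member of either list passed the test, with medians of 0.62 and 0.25. At 26 against 5 months the medians were 1.42 and 0.95, also of the other sign than in WT. There 0 of 21 erythroid genes were called, and 4 of 32 cell-cycle genes were called higher (background 1.64%) and 0 lower (2.18%).

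**Figure D3:**
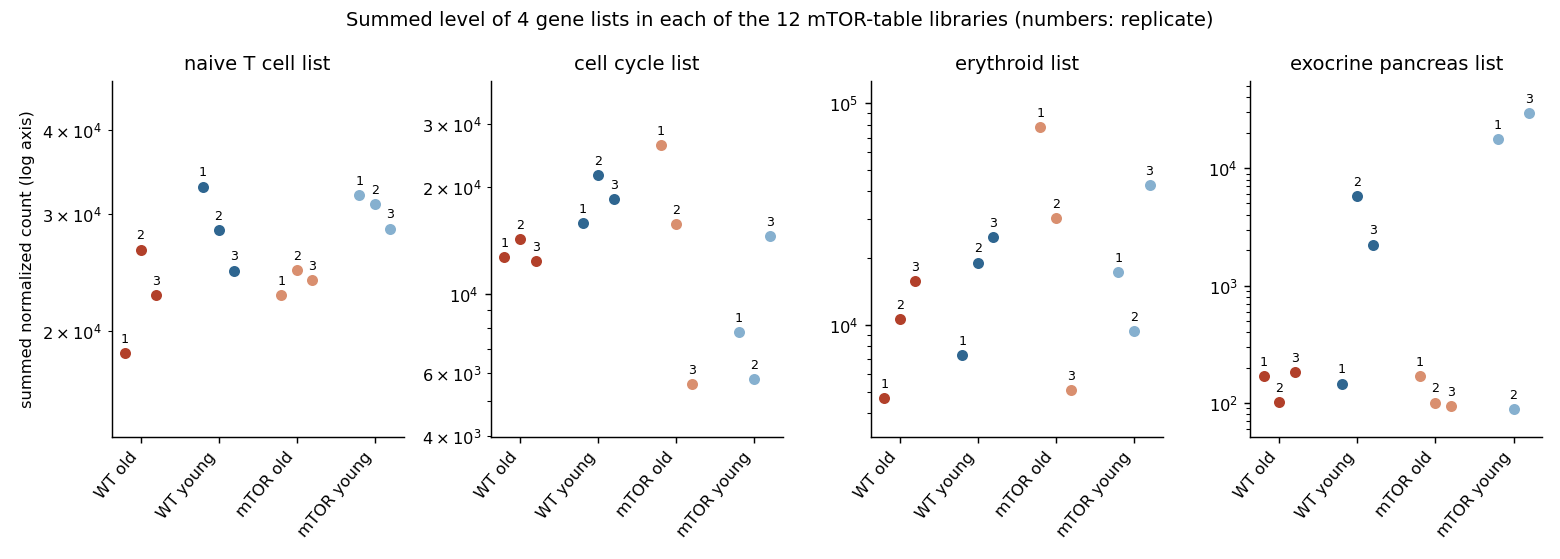
Summed normalized count (log axis) of the naive T-cell, cell-cycle, erythroid and exocrine pancreas lists in each library of the WT old, WT young, mTOR old and mTOR young groups, each point numbered by replicate. The pancreas sums stand high in 2 WT young and 2 mTOR young libraries, and the naive T-cell sums of WT old replicates 1 and 3 lie under all WT young ones.

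The same contrast in the ageing spleens tested 16243 genes, of which limma called 1354 higher (8.34%) and 1135 lower (6.99%) at 20 against 5 months. Over the 15106 genes tested in both tables, 56.4% had the same sign in both. Since no gene was called in WT spleens, the direction was read for the 393 genes at a limma p under 0.01 in WT and tested in both, a choice made after the data were seen, and 298 of them (75.8%) had the same sign. The share was 75.4% for the 167 higher genes and 76.1% for the 226 lower ones. Of all 15106 genes, 1648 were called in the ageing spleens with the same sign and 788 with the opposite one. Of the 393, 80 were called there with the same sign and 6 with the opposite one. Leaving out WT old replicate 2, the share was 85.4%, and leaving out WT young replicate 2 it was 66.4%. Across all 15106 genes the 2 sets of log2 differences had a Pearson correlation of 0.19, given as a description, since genes are not independent.

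Of the 12 named lower genes, 7 fell at 20 against 5 months (background 6.99%), and of the 12 named higher genes 2 rose (8.34%). Dapl1 had a median of 16.7 (3.86 to 82.4) at 20 months and 120.2 (72.0 to 151) at 5 months. The ranges overlapped in 1 spleen of 20 months, and Dapl1 fell there (-2.64 ± 0.45, limma adjusted p = 0.000128). Lef1 had a median of 312 (184 to 450.3) at 20 months and 1286 (984 to 2928) at 5 months, without overlap, and also fell (-2.32 ± 0.41, limma adjusted p = 0.000236). St8sia1, Pacsin1, Tmie, Rab3ip and Mir142hg, the host gene of miR-142, fell as well at 20 months, with log2 differences of -1.95, -1.46, -1.49, -1.10 and -1.06. Hmgb1, Hmgn1, Upf3a, Gin1 and Gpatch4 did not pass the test there, with differences of -0.04, 0.03, 0.20, 0.19 and -0.29. On the higher side Thbs2 rose, with a median of 382 (94.2 to 464) at 20 months and 117 (80.8 to 221) at 5 months (1.34 ± 0.34, limma adjusted p = 0.00547), and so did Yap1 (0.82 ± 0.22, limma adjusted p = 0.00768). At 20 months Fcgr2b did not pass the test, with a median of 666 (460.1 to 942) at 20 months and 525 (284 to 697) at 5 months (0.33 ± 0.18, limma adjusted p = 0.208). Nor did Klrc1, with a median of 41.4 (at most 68.8) at 20 months and 52.9 (at most 74.4) at 5 months (-0.30 ± 0.27, limma adjusted p = 0.488). Without the 7 shallow ageing libraries of these ages (under 5000000 reads), Tmie and Thbs2 no longer passed, with limma adjusted p of 0.0573 and 0.0916.

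At 26 against 5 months, a comparison that shares the 5-month spleens with the one above, limma called 267 genes higher (1.64%) and 354 lower (2.18%). Without the shallow libraries it called more at this age, 732 higher and 982 lower of 16243 genes. At 20 months that step lowered the count, from 2489 to 607, so the order of the 2 ages depended on these libraries. In the fit with all libraries, 78.6% of the 393 genes had the same sign as in WT. Fcgr2b had a median of 1125 (761 to 1532) at 26 months, above all 9 spleens of 5 months, and rose (1.16 ± 0.20, limma adjusted p = 0.00256). Klrc1 had a median of 94.0 (77.1 to 169) at 26 months, also above all spleens of 5 months, and rose (1.04 ± 0.30, limma adjusted p = 0.0435), though without the shallow libraries its limma adjusted p was 0.0811. Ahnak rose too (0.76 ± 0.22, limma adjusted p = 0.0418; limma adjusted p = 0.0957 without the shallow libraries), which made 3 of the 12 named higher genes. Thbs2 and Yap1 did not pass at 26 months, with differences of 0.41 and 0.13. Of the 12 named lower genes 5 fell at 26 months, Dapl1 (-1.69 ± 0.49, limma adjusted p = 0.0446), Lef1 (-2.06 ± 0.46, limma adjusted p = 0.0183), Pacsin1, St8sia1 and Rab3ip. Tmie and Mir142hg passed as lower only without the shallow libraries, with limma adjusted p of 0.0208 and 0.0273. Whether the WT and ageing differences of these genes are unequal was not tested, as the tables were normalized separately.

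**Figure D4:**
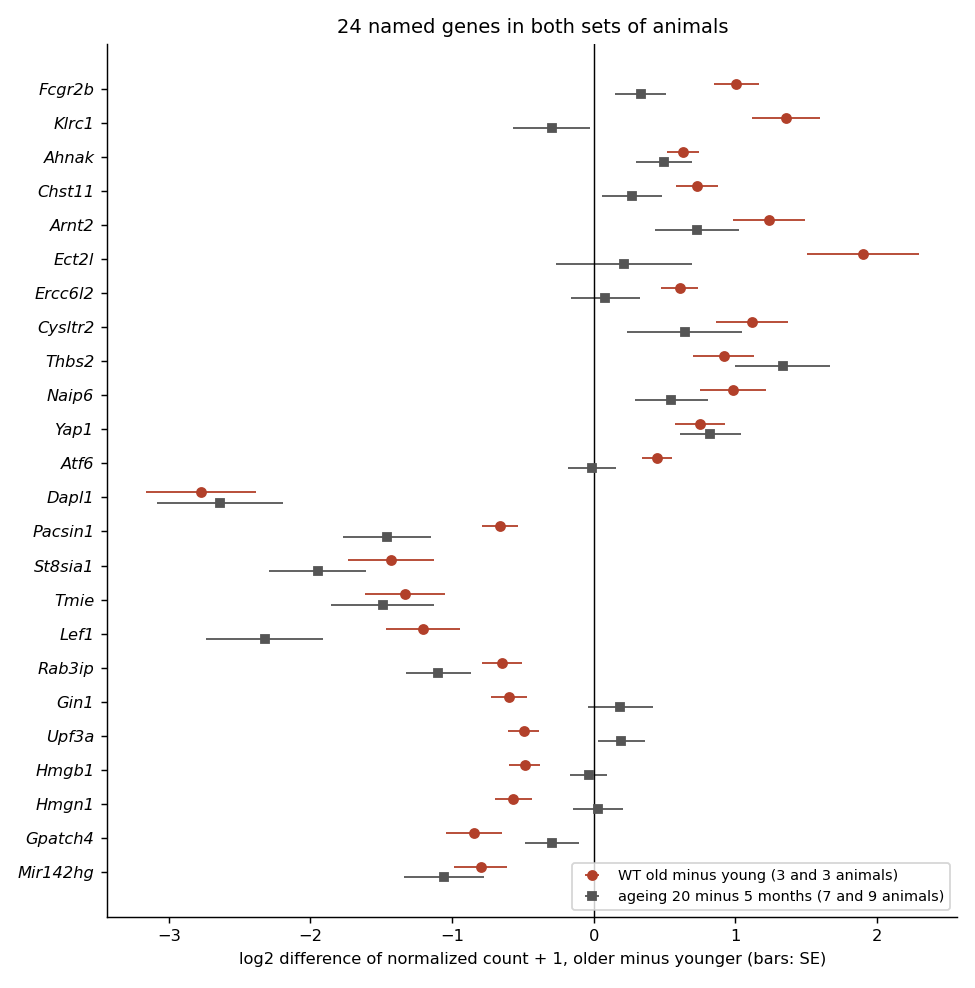
Log2 difference with SE for the 24 named genes, older minus younger, in WT spleens (circles, 3 and 3 animals) and ageing spleens (squares, 7 and 9 animals); the horizontal axis is on the log2(normalized count + 1) scale. Dapl1, St8sia1, Tmie and Lef1 lie low in both sets, while Klrc1 is at 1.36 in WT and -0.30 at 20 against 5 months, with 26 months not plotted.

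Lists differed in how far the ageing spleens went beyond the WT ones. At 20 against 5 months 6.99% of all genes were called lower and 8.34% higher. In that comparison 12 of 15 naive T-cell genes fell and 0 rose, with a median of -1.41, where the WT median was -0.41. Satb1, a chromatin organiser of T cells, fell there to a median of 470.0 (358 to 677) at 20 months and 2270.0 (1512 to 2863) at 5 months, while in the mTOR table it had 732, 1279 and 932 in WT old spleens, against 1613, 1484 and 953.4 in WT young spleens. Of 16 pan-T genes 15 fell, and of 16 pan-B genes 15 fell. All 15 genes of neutrophil granule precursors rose in the 20-month spleens, with a median of 3.99. Over the 12 tested in WT the median was 0.30, and its sign rested on 1 library, being -0.05 without WT young replicate 1 and 0.04 to 0.64 without any other. Ltf, which encodes lactoferrin, had a median of 1073 (73.4 to 1516) at 20 months and 28.4 (3.96 to 133) at 5 months, and 147, 38.4 and 107 in WT old spleens, against 20.0, 119 and 65.1 in WT young spleens. Endothelial genes rose in 10 of 14 and fell in 1 at 20 months, and the median was 1.24. Without the shallow libraries the counts were 7 lower for the naive T-cell list, 5 for pan-T, 2 for pan-B, 11 higher for neutrophil precursors and 3 higher for endothelial genes, with medians of -1.21, -0.89, -0.97, 3.79 and 1.47. Over all 16243 genes, 375 were called higher and 232 lower in that fit. The age-associated B-cell list, higher in WT old spleens, had a median of -0.17 at 20 months, with 1 of 9 called higher and 0 lower, and of 0.34 at 26 months, with 3 higher and 0 lower. At 26 months 6 of 15 naive T-cell genes fell, 7 of 16 pan-B genes, 1 of 16 pan-T genes, and 1 of 15 neutrophil precursor genes rose. Over all genes 2.18% were called lower and 1.64% higher at that age. The medians of these 4 lists at 26 months were -1.02, -0.70, -0.55 and 1.96.

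**Figure D5:**
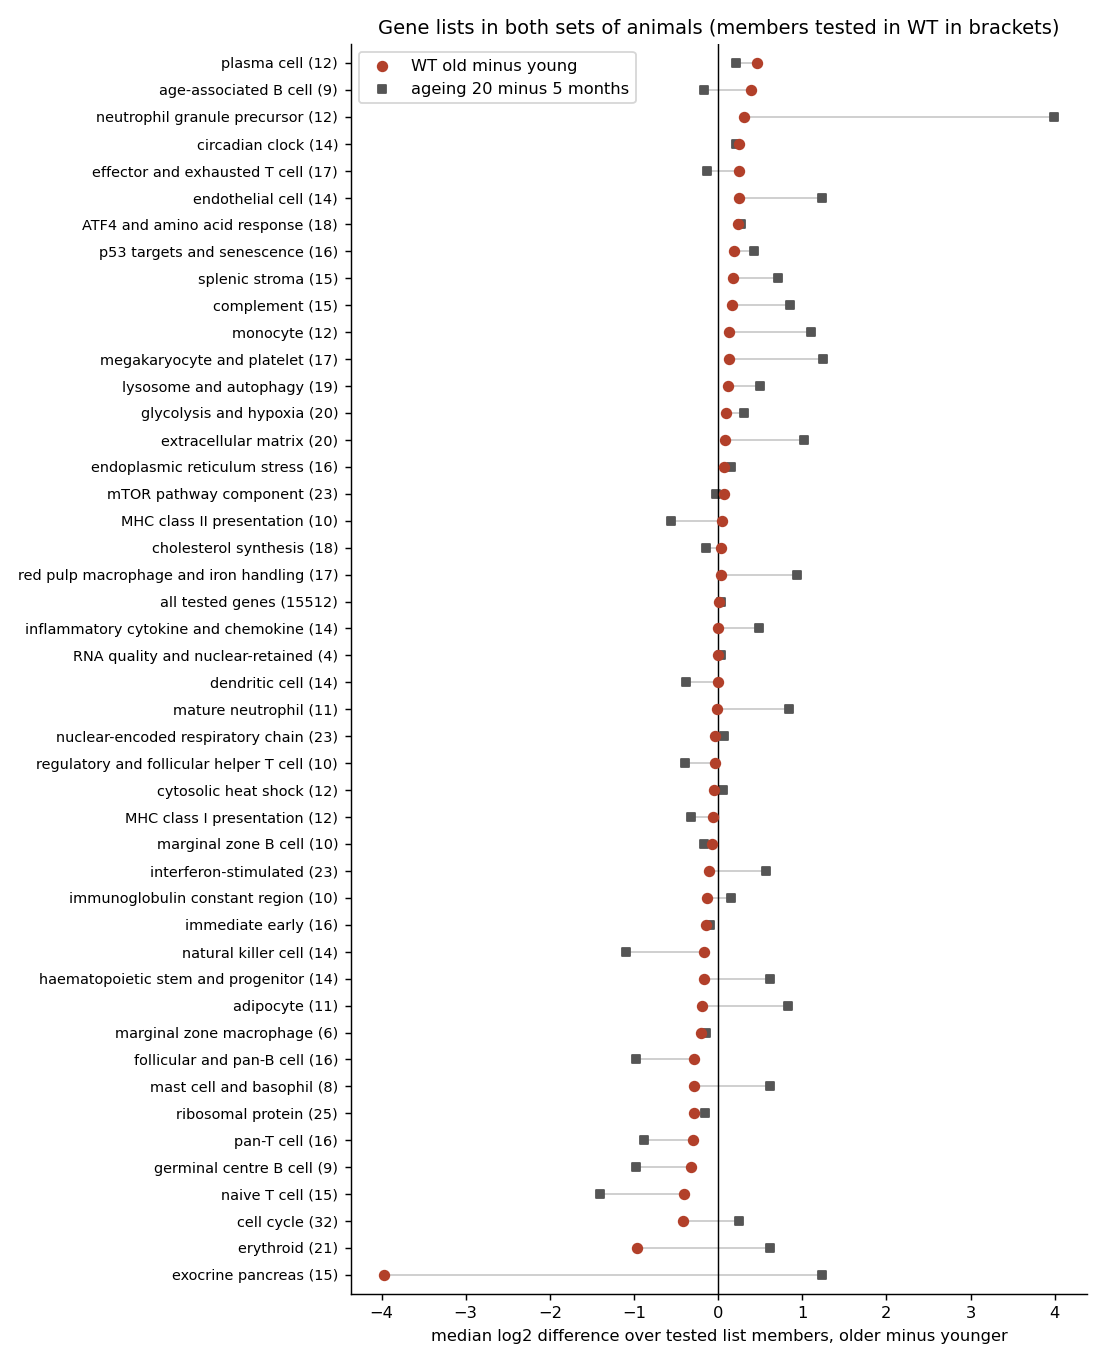
Median log2 difference over the tested members of each gene list, older minus younger, in WT spleens (circles) and ageing spleens (squares, 20 minus 5 months), with the number tested in WT in brackets. The naive T-cell medians are -0.41 in WT and -1.41 in ageing spleens, and the neutrophil granule precursor medians 0.30 and 3.99.

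The age difference in WT was also tested against that in the mTOR spleens of the same table. The interaction called 0 genes by limma, edgeR and DESeq2, with 850, 931 and 942 at unadjusted p under 0.05, and the smallest limma adjusted p was 0.787. Within the mTOR spleens limma called 1 gene (0.00645%) between old and young, Dph5, an enzyme of diphthamide synthesis that was lower in the old, and DESeq2 called 120. Fcgr2b differed by 1.01 between ages in WT and by 0.04 in mTOR spleens, with an unadjusted limma interaction p of 0.000759. Dapl1 differed by -2.77 in WT and -0.57 in mTOR spleens, with an unadjusted limma interaction p of 0.00149. Both genes were chosen for their WT difference, which is part of the interaction, so these unadjusted p-values lean small by that choice. The limma adjusted interaction p was 0.787 for each, so no difference between the genotypes is drawn from them. Lef1 lay at -1.21 in WT and -0.96 in mTOR spleens. The naive T-cell median was -0.41 in WT and -0.49 in mTOR spleens.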

How the data were processed

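The signal values are read counts per gene that the authors normalized before they deposited them, with no fixed total per library. The submitters' processing notes name DESeq2 and R 3.5.1, the aligner HISAT2 2.1.0, SAMtools, cutadapt, bcl2fastq 2.20 and the builds GRCm38 and mm10. Gene positions are from GENCODE M21 (GRCm38). Total RNA was used, per the labels' protocols. In each library every value was a whole multiple of 1 step (100% within 0.01 reads), so the reads were recovered; 51810 symbols are listed.

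limma 3.58.1 (trend) was run on log2(normalized count + 1) in R 4.3.3, with 4 groups over 12 libraries and 6 ages over 45 ageing spleens (value of 10 or more in at least 5), and Benjamini-Hochberg adjustment over all tested genes. edgeR 4.0.16 (quasi-likelihood) and DESeq2 1.42.0 ran on the recovered reads. The fits were tested on simulated data. p-values measure the spread between these animals only. The planned naming rule asked for called genes and gave none, so the 12 smallest p-values in each direction were taken instead, with a mean of 50 or more in the higher group and without predicted genes, pseudogenes, variable segments and genes of the sex chromosomes. List members were named for non-overlap or a known role, after values were seen. The members and the 45 lists were chosen with earlier results of these data known. Figures were drawn with matplotlib 3.10.9.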

Additional observations from a re-analysis of the deposited data

Results flagged for a closer look

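Among the 24 named genes and the segment indices, 52 groups of ageing spleens were examined for a library far from the rest of its group, and 9 had one, where chance gives about 1 in 20. At 20 months, replicate 2 stood low for Arnt2 (15.8 normalized counts) and Tmie (2.25) and high for Pacsin1 (218), and it was the shallowest library of its group, with 3031246 reads. Replicate 7 of that age stood low for Yap1 (76.1) and high for Gin1 (189.6) and Gpatch4 (2875). At 5 months, replicate 6 stood high for Thbs2 (221) and low for Gin1 (21.8), and replicate 9 low for Ect2l (2.199). Groups of 3, the WT spleens included, are too small for this check.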

How the results depend on the processing

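No paired analysis was possible because the titles give each animal its own number and no number is shared between groups. The WT count of 0 genes became 99 with DESeq2, 21 with DESeq2 without WT young replicate 1, and 1 (Gm2619) with a pseudocount of 5, and ran from 0 to 2 when each WT library was left out in turn. The interaction count stayed at 0 except for 2 variable segments (Igkv6-15 and Ighv1-7) with DESeq2 without WT young replicate 1. The ageing count of 2489 fell to 607 (375 higher, 232 lower) without the 2 libraries at 20 months and 5 at 5 months under 5000000 reads. At 26 against 5 months the count rose instead without libraries under that depth, from 621 to 1714. The share of same-sign genes, 75.8%, ran from 66.4 to 85.4% over left-out WT libraries. It was 68.7% against 20 minus 3 months, 69.0% for genes at p under 0.05, 80.6% for DESeq2 calls and 70.0% with DESeq2 in both tables. At 20 minus 5 months the sign turned for Klrc1 (0.040), Chst11 (-0.055) and Gin1 (-0.036) without the shallow libraries, and for Atf6 with DESeq2 (0.026) and edgeR (0.015), all near 0. The cause was not tested.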

Other observations

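Some values outside the named groups may deserve a second look. Deptor, an inhibitor of mTOR signalling, had 455, 288 and 471 in WT old spleens, against 214, 294 and 173 in WT young spleens, which overlapped, and a difference of 0.83 ± 0.23 (limma adjusted p = 0.362). Plxna1, a semaphorin receptor that DESeq2 called higher, had 115, 58.6 and 79.4 in WT old spleens, against 18.8, 46.0 and 31.4 in WT young spleens. Foxp2, a transcription factor also called by DESeq2 with and without WT young replicate 1, had 51.4, 107 and 51.9 in WT old spleens, against 35.5, 20.3 and 16.8 in WT young spleens. Among clock genes, 3 of 14 tested were higher without overlap (background 7.07%), Clock, Nr1d2 and Bhlhe40, and 1, Dbp, was lower (6.99%). Nr1d2 had 692, 753 and 676 in WT old spleens, against 377, 672 and 417 in WT young spleens, and Dbp had 48.7, 52.2 and 61.1 in WT old spleens, against 62.1, 130.4 and 66.2 in WT young spleens. The hours at which the spleens were taken are not given in the labels.

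Among 23 tested interferon-stimulated genes, 1, Mx1, was higher without overlap (background 7.07%) and 4, Isg15, Ifit1, Oasl1 and Gbp3, were lower (6.99%). Mx1 had 277, 274 and 255 in WT old spleens, against 119.7, 207 and 165 in WT young spleens. Isg15 had 60.02, 60.8 and 57.0 in WT old spleens, against 90.9, 84.5 and 148 in WT young spleens. At 20 against 5 months 4 of the 23 rose (background 8.34%) and 0 fell (6.99%), with a list median of 0.57, against -0.11 in WT spleens. Zg16, a secretory granule protein of pancreas and gut, had 20.7, 28.8 and 37.7 in WT old spleens, against 111, 145 and 108 in WT young spleens (limma adjusted p = 0.37). Here WT young replicate 1 was as high as the other WT young spleens, unlike the pancreatic enzymes. In mTOR spleens the values overlapped, with 130, 114 and 47.2 in old and 281, 50.1 and 554 in young spleens. At 20 against 5 months Zg16 did not pass the test (-0.33 ± 0.45, limma adjusted p = 0.666).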
